A study of Lentinus brumalis with 11 samples.

Results

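Manganese peroxidases (MnPs) are secreted heme enzymes of white-rot fungi that use hydrogen peroxide to oxidize Mn(II) to Mn(III). Chelated Mn(III) then diffuses into the plant cell wall and attacks phenolic units of lignin. The short MnPs have a shorter C-terminal tail than the classical long MnPs and can also oxidize phenols without manganese. Generic peroxidases (GPs) belong to the same AA2 family of fungal heme peroxidases but lack the sites needed to oxidize manganese or lignin directly.

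The genes followed here are the 9 short MnP genes and the 1 GP gene that the study annotated in *Polyporus brumalis*, 10 of the 18244 genes in the count table. They were chosen by their annotation and not by their counts. Each gene is written as its class and its protein number in the count table, joined by a point: MNP for the short MnPs, GP and VP for the other peroxidases, CRO for AA5_1 copper radical oxidases, GMC for AA3 oxidoreductases and ID for a gene of none of these classes. The other 9 of the 19 AA2 genes are versatile peroxidases (VPs), which combine oxidation of manganese with direct oxidation of lignin. Short MnP genes MNP.1185543, MNP.1347226, MNP.1486819, MNP.855582, MNP.1340324, MNP.1363610 and MNP.1418086 encode predicted secreted proteins. Genes MNP.1487289 and MNP.1487292 are annotated as C-terminal fragments, and GP.1560842 as an N-terminal fragment. Among proteins secreted on straw, the paper lists those of MNP.1185543, MNP.1347226, MNP.1486819, MNP.855582 and the fragment MNP.1487292 as detected.

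RNA was sequenced from the dikaryotic strain BRFM 985, grown in every sample. Solid-state fermentation (SSF), in which mycelium grows on moist straw without free water, gave 2 libraries at Day 4, 3 at Day 10 and 3 at Day 15, from 20 g of sterilized wheat straw held at 28 °C. The straw was inoculated with mycelium pregrown on 2% malt extract, for 6 days by the labels, and received copper, iron and manganese sulfate at 0.9 µmol of each per g. The 3 control libraries came from mycelium grown for 10 days in liquid 2% malt extract, in stationary culture by the paper. For the straw cultures, the paper also describes a wetted air stream and an inoculum of ground mycelium. No temperature is given for the control. Straw, solid state, added metals and these other conditions cannot be told apart in any comparison with the control. With a preculture of 6 days counted, total culture time was the same at Day 4 as in the control. At Days 10 and 15 a longer culture time is one more difference that cannot be told apart. The paper's results also give 6 days, but its methods describe an older inoculum, with which Day 4 would be longer too. All 3 days were compared with the same control libraries. The labels number the libraries as replicates, and the paper calls the cultures biological replicates.

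Library totals were 20368063 to 42408348 counts, with the 3 control libraries among the 4 deepest. A difference was called when its adjusted p was under 0.05 in edgeR's quasi-likelihood test over 15462 genes, with Benjamini-Hochberg adjustment, and all 10 genes passed its filter on low counts. Levels are counts divided by DESeq2 size factors (normalized counts) or the mean of log2(normalized count + 1) ± SD. SSF Day 10 replicate 3 stood apart. Its counts differed from those of the other Day 10 libraries by a chi-square of 94.4 and 90.4 per gene, against 26.0 between those other libraries and 6.24 to 20.5 within the other groups. Its log2 level differed from the mean of the other Day 10 libraries by 2.25 for MNP.1487292, 2.21 for MNP.1487289, -1.83 for MNP.1185543 and -1.46 for MNP.1347226, in each case toward the Day 4 level. For the other 6 genes this difference was between -0.68 and 0.16. The Day 10 results that it moved most are also given without it.

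Against the control, 7 of the 10 genes were higher on every day of SSF, and these were all short MnPs. At Day 4, 7 were higher and 2 lower, where 30.1% of the genes tested were higher and 32.2% lower. At Day 10, 7 were higher and 3 lower, where 31.5% of the genes tested were higher and 31.1% lower. At Day 15, 7 were higher and 3 lower, where 33.0% of the genes tested were higher and the same share lower. The median log2 fold change of the 10 genes was 5.99, 6.31 and 3.29 at Days 4, 10 and 15, beside -0.07, -0.02 and -0.02 over all genes tested. Scaling by library totals moved the background to 19.1% higher and 48.1% lower at Day 4, to 23.0% and 41.5% at Day 10 and to 24.4% and 44.0% at Day 15. Under the scalings tried, none of the 10 genes changed direction against the control.

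**Figure D1:**
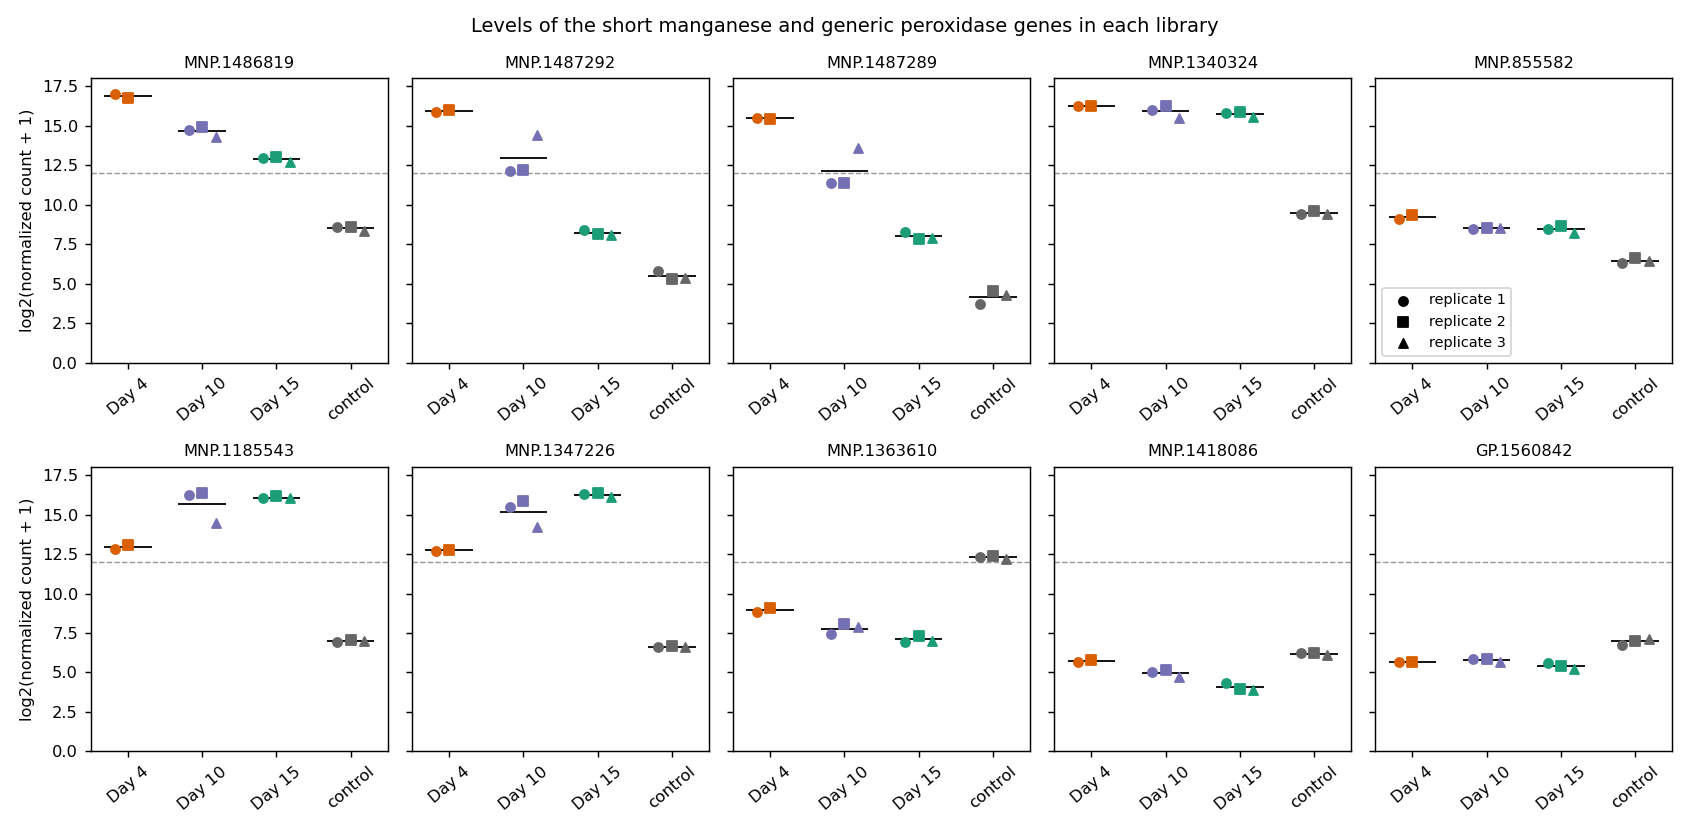
Level of each gene, as log2(normalized count + 1), in every library of SSF Days 4, 10 and 15 and of the liquid control. Points are libraries (circle, square and triangle for replicates 1, 2 and 3), black bars are group means, and the dashed line marks 12. Genes MNP.1486819, MNP.1487292 and MNP.1487289 peaked at Day 4, MNP.1185543 and MNP.1347226 were highest at Days 10 and 15, and MNP.1363610, MNP.1418086 and GP.1560842 were highest in the control. Day 10 replicate 3 (triangle) lay apart for MNP.1487292, MNP.1487289, MNP.1185543 and MNP.1347226.

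**Figure D2:**
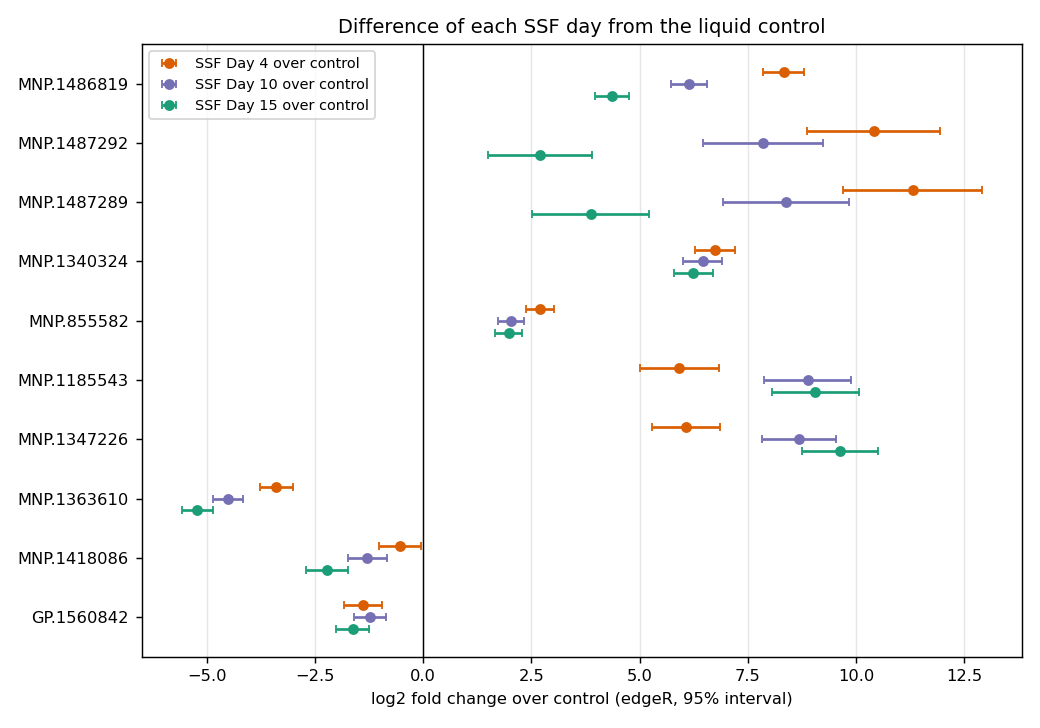
Log2 fold change of SSF Days 4, 10 and 15 over the liquid control for each gene, from edgeR, with 95% intervals. Genes MNP.1486819, MNP.1487292 and MNP.1487289 moved toward the control with time on straw. MNP.1185543 and MNP.1347226 lay further from the control at Days 10 and 15 than at Day 4, and the 3 genes at the bottom lay below 0 on every day.

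MNP.1486819, MNP.1487292 and MNP.1487289 had their highest levels at Day 4 and were lower at each later day. Normalized counts of MNP.1486819 were 133514 and 109962 at Day 4, 27299, 31439 and 20348 at Day 10, then 8152, 8169 and 6592 at Day 15, against 388, 386 and 325 in the control. No library of any group overlapped with one of another group. Its mean log2 level was 16.89 ± 0.20 at Day 4 (SD, n = 2), 14.66 ± 0.32 at Day 10, 12.89 ± 0.18 at Day 15 and 8.52 ± 0.14 in the control (SD, n = 3 each). The log2 fold change over the control was 8.33 (SE 0.22, adjusted p = 4.3e-12) at Day 4, 6.15 (SE 0.19) at Day 10 and 4.36 (SE 0.18) at Day 15. From Day 10 to Day 15 it fell by 1.79 (SE 0.16, adjusted p = 1.8e-05).

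MNP.1487292, a C-terminal fragment in the annotation, had 59929 and 65548 normalized counts at Day 4. It had 4516, 4797 and 22204 at Day 10, then 337, 283 and 268 at Day 15, against 54.6, 38.6 and 40.3 in the control. The groups did not overlap, but Day 10 replicate 3 held 4.92 times the count of the lowest Day 10 library. Its log2 fold change over the control was 10.41 (SE 0.71, adjusted p = 3.5e-08) at Day 4 and 7.86 (SE 0.64) at Day 10, or 6.68 without Day 10 replicate 3. At Day 15 it was 2.70 (SE 0.56, adjusted p = 8.4e-04). The change of Day 15 over Day 4 was -7.71 (SE 0.63, adjusted p = 3.9e-07).

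MNP.1487289, the other C-terminal fragment, had 46559 and 45039 normalized counts at Day 4. These were followed by 2645, 2696 and 12365 at Day 10, then 314, 231 and 234 at Day 15, against 12.3, 22.0 and 18.2 in the control. The pattern was that of MNP.1487292, again with no overlap between groups and with the highest Day 10 value in replicate 3. The log2 fold change over the control was 11.32 (SE 0.74, adjusted p = 2.4e-08) at Day 4, 8.39 at Day 10 (7.25 without Day 10 replicate 3) and 3.87 (SE 0.62) at Day 15. Over Day 4, the change at Day 10 was -2.92, and -4.05 without Day 10 replicate 3. For MNP.1487292 these values were -2.55 and -3.71.

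Another pair of short MnPs also had their highest mean at Day 4 but kept much of it. MNP.1340324 had 79727 and 78503 normalized counts at Day 4. It had 67016, 78833 and 45250.5 at Day 10, then 56575, 59328 and 48366 at Day 15, against 693, 765 and 678 in the control. Every SSF library was above every control library, while the days overlapped. Its log2 fold changes over the control were 6.75 (SE 0.21, adjusted p = 1.9e-11), 6.46 (SE 0.21) and 6.24 (SE 0.20) at Days 4, 10 and 15. Neighbouring days did not differ beyond their spread, with a change of -0.29 (95% interval -0.68 to 0.10, adjusted p = 0.218) for Day 10 over Day 4 and of -0.22 (95% interval -0.57 to 0.13, adjusted p = 0.359) for Day 15 over Day 10. Without Day 10 replicate 3 this last change was called, at -0.42 (adjusted p = 0.0105), and without Day 10 replicate 2 the first was called, at -0.46. The difference of Day 15 over Day 4 was called, at -0.51 (SE 0.18, adjusted p = 0.0278), but not with library totals (-0.39) or without Day 4 replicate 1 (-0.50), Day 4 replicate 2 (-0.52) or Day 15 replicate 3 (-0.43).

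MNP.855582 was the least abundant of the 7 genes raised on straw at Days 4 and 10. At Day 15 the fragments MNP.1487292 and MNP.1487289 were lower, with mean normalized counts of 296 and 259, against 353 for MNP.855582. Normalized counts were 538 and 641 at Day 4, 355, 371 and 368 at Day 10, then 355, 404 and 299.5 at Day 15, against 79.7, 99.9 and 84.6 in the control. All SSF libraries exceeded the control, the Day 4 libraries exceeded the later ones, and Days 10 and 15 overlapped. The log2 fold change over the control was 2.70 (SE 0.15, adjusted p = 5.2e-09) at Day 4, 2.03 (SE 0.14) at Day 10 and 1.98 (SE 0.14) at Day 15. The change of Day 10 over Day 4 was -0.67 (SE 0.15, adjusted p = 0.00259). The change of Day 15 over Day 10, -0.06 (95% interval -0.35 to 0.24, adjusted p = 0.807), was not called.

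MNP.1185543 and MNP.1347226 followed the opposite time course and were highest late in the fermentation. Normalized counts of MNP.1185543 were 7227 and 8614 at Day 4, 76344, 84727 and 22601 at Day 10, then 67999.6, 73138 and 66402 at Day 15, against 124, 129.9 and 128 in the control. Both later days lay above Day 4, and Day 10 replicates 1 and 2 lay above Day 15 while replicate 3 lay below it. The mean log2 level was 12.95 ± 0.18 at Day 4 (SD, n = 2), 15.68 ± 1.06 at Day 10, 16.08 ± 0.07 at Day 15 and 7.00 ± 0.04 in the control (SD, n = 3 each). Over Day 4, the change was 2.97 (SE 0.41, adjusted p = 7.9e-05) at Day 10, or 3.39 without Day 10 replicate 3, and 3.15 (SE 0.42, adjusted p = 3.0e-05) at Day 15. Day 15 and Day 10 were not told apart, at 0.18 (95% interval -0.53 to 0.88, adjusted p = 0.74), and the sign turned to -0.23 (adjusted p = 0.102) without Day 10 replicate 3.

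MNP.1347226 had 6512 and 7033 normalized counts at Day 4. It had 45316, 58220.4 and 18642 at Day 10, then 80872, 84571 and 71591 at Day 15, against 96.4, 101 and 96.5 in the control. Each group lay above the one before it in time with no overlap, and Day 10 replicate 3 was again the lowest of its group. Its log2 fold change over the control was 6.07 (SE 0.36, adjusted p = 9.3e-09) at Day 4, 8.68 (SE 0.39) at Day 10, or 9.03 without Day 10 replicate 3, and 9.63 (SE 0.41, adjusted p = 3.0e-10) at Day 15. It was the only one of the 10 genes higher at Day 15 than at Day 10, by 0.96 (SE 0.28, adjusted p = 0.0254), or 0.60 without Day 10 replicate 3 (adjusted p = 0.00169). This call was lost with only Days 10 and 15 in the fit (0.95, adjusted p = 0.0793), without Day 15 replicate 1 (0.94, adjusted p = 0.0633) and without Day 15 replicate 2 (0.91, adjusted p = 0.082).

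The remaining genes, MNP.1363610, MNP.1418086 and GP.1560842, had their highest levels in the control. MNP.1363610 had 445 and 539.5 normalized counts at Day 4, 169, 261 and 236 at Day 10, then 120.3, 160.0 and 129 at Day 15, against 5099, 5227 and 4674 in the control. All groups were separate. Its log2 fold change over the control was -3.39 (SE 0.18, adjusted p = 2.2e-09) at Day 4, -4.51 (SE 0.16) at Day 10 and -5.22 (SE 0.17, adjusted p = 2.4e-11) at Day 15. It also fell by 1.12 (SE 0.16, adjusted p = 1.2e-04) between Days 4 and 10 and by 0.71 (SE 0.16, adjusted p = 0.00639) between Days 10 and 15.

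MNP.1418086 was scarce in every library, with 41 and 39 counts before normalization at Day 4, 25, 28 and 21 at Day 10, then 14, 11 and 18 at Day 15, against 136, 112 and 119 in the control. After normalization the groups did not overlap, and the order was control, Day 4, Day 10, Day 15 from high to low. Its change over the control was -0.54 (95% interval -1.01 to -0.06, adjusted p = 0.0503) at Day 4, just outside the limit, -1.29 (SE 0.21, adjusted p = 1.3e-04) at Day 10 and -2.21 (SE 0.22, adjusted p = 1.8e-06) at Day 15. The Day 4 difference was called under 6 of 18 alternatives, for instance at -0.91 with library totals and at -0.57 with a stricter count filter. The falls between days, -0.75 (adjusted p = 0.0244) for Day 10 over Day 4 and -0.93 (adjusted p = 0.019) for Day 15 over Day 10, lost their call under 6 and 4 of the 18. Among them were the fits without Day 4 replicate 1 (-0.82), Day 4 replicate 2 (-0.68) and Day 10 replicate 3 (-0.61) for Day 10 over Day 4. For Day 15 over Day 10 they included those without Day 10 replicate 2 (-0.84), Day 15 replicate 2 (-0.88) and Day 15 replicate 3 (-0.83).

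GP.1560842 also stayed low. Its normalized counts were 49.3 and 49.9 at Day 4, 56.4, 55.9 and 50.1 at Day 10, then 47.0, 41.3 and 36.9 at Day 15, against 108, 129 and 141 in the control. All control libraries lay above all SSF libraries. The log2 fold change over the control was -1.38 (SE 0.20, adjusted p = 5.7e-05) at Day 4, -1.23 (SE 0.17) at Day 10 and -1.63 (SE 0.18) at Day 15. No pair of days was called, with changes of 0.15 (95% interval -0.32 to 0.62) for Day 10 over Day 4, -0.39 (95% interval -0.82 to 0.03) for Day 15 over Day 10 and -0.24 (95% interval -0.72 to 0.24) for Day 15 over Day 4.

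Between days, more of these genes fell than rose. At Day 10, 2 of the 10 were higher and 6 lower than at Day 4, where 22.3% of the genes tested were higher and 22.0% lower (29.4% and 16.0% with library totals). Without Day 10 replicate 3, 5 were lower, as MNP.1418086 lost its call. Against Day 10, Day 15 had 1 of the genes higher and 5 lower, where 11.7% were higher and 12.4% lower. Without Day 10 replicate 3, 6 were lower, as MNP.1340324 gained a call. Over the whole interval, Day 15 against Day 4, 2 genes were higher and 7 lower, where 28.6% were higher and 29.2% lower. The median change of the 10 genes was -0.71, -0.55 and -1.20 in these comparisons, beside 0.03, 0.00 and 0.01 over all genes tested.

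The opposite time courses can also be read within a library, with no scaling between libraries. The log2 ratio of counts of MNP.1185543 to MNP.1486819 was -4.21 and -3.67 at Day 4, 1.48, 1.43 and 0.15 at Day 10, then 3.06, 3.16 and 3.33 at Day 15, against -1.65, -1.57 and -1.34 in the control. That of MNP.1347226 to MNP.1487292 was -3.20 and -3.22 at Day 4, 3.33, 3.60 and -0.25 at Day 10, then 7.90, 8.22 and 8.06 at Day 15, against 0.81, 1.37 and 1.25 in the control. Both ratios separated the 3 days completely, and Day 10 replicate 3 was the Day 10 library nearest to Day 4. The pairs were chosen with these time courses known, so no test was made.

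**Figure D3:**
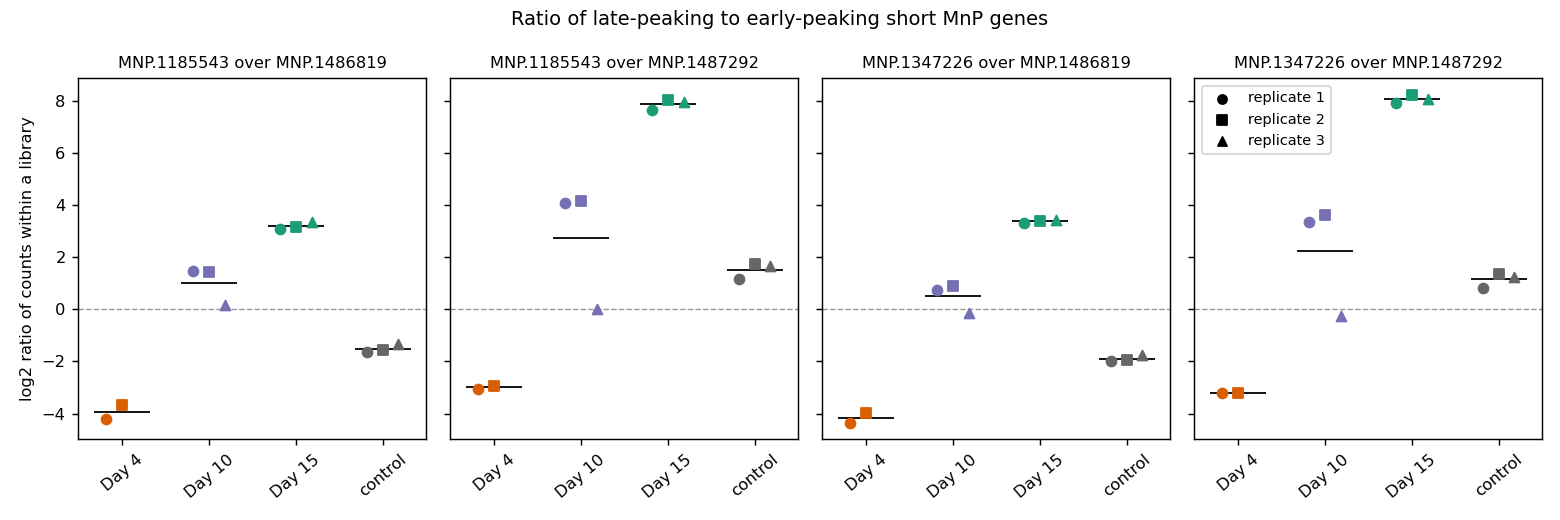
Log2 ratio of the counts of MNP.1185543 or MNP.1347226 to those of MNP.1486819 or MNP.1487292 within each library, by group. Points are libraries, bars are group means, and the dashed line marks equal counts. In all 4 panels the Day 4 libraries lay lowest and the Day 15 libraries highest, with Day 10 replicate 3 (triangle) below the other Day 10 libraries.

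As a family, the short MnPs took a share of all counts that changed less over time than its makeup. The 9 genes held 1.07% and 0.981% of the counts at Day 4, 0.788%, 0.909% and 0.518% at Day 10, then 0.763%, 0.759% and 0.677% at Day 15, against 0.0285%, 0.0286% and 0.0254% in the control. All SSF libraries lay above the control and Day 4 lay above the later days. The 9 VP genes took 6.82% ± 0.0865 at Day 4 (SD, n = 2), 2.53% ± 0.598 at Day 10 and 1.05% ± 0.0783 at Day 15, against 0.0813% ± 0.00725 in the control (SD, n = 3 each). Short MnPs thus made up 13.6% and 12.5% of AA2 counts at Day 4, 27.5%, 28.2% and 13.9% at Day 10, then 40.2%, 43.6% and 39.7% at Day 15, against 25.0%, 24.9% and 25.7% in the control. Day 10 replicate 3 lay close to the Day 4 libraries in this share.

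Different genes made up the short MnP counts in each group. At Day 4, MNP.1486819 gave 37.4% ± 3.61, MNP.1340324 gave 24.3% ± 0.716, and the 2 C-terminal fragments MNP.1487292 and MNP.1487289 gave 19.3% ± 2.00 and 14.1% ± 0.238 (SD, n = 2). At Day 15, MNP.1347226 gave 37.3% ± 0.371, MNP.1185543 gave 32.7% ± 1.34 and MNP.1340324 gave 25.8% ± 0.775, while MNP.1486819 gave 3.60% ± 0.198 (SD, n = 3). In the control, MNP.1363610 alone gave 76.6% ± 0.334 (SD, n = 3). Gene MNP.1340324 was the steadiest on straw, with between 23.8% and 31.9% of short MnP counts in every SSF library. Of the 9 short MnP genes, 6 had a mean log2 level above 12 at Day 4, 6 at Day 10 and 4 at Day 15, against 1 in the control, which was MNP.1363610. At Day 10, MNP.1487289 was above 12 only through Day 10 replicate 3, with a mean of 12.12, or 11.38 without that library. Of all genes in the table, 7.75%, 6.65% and 6.92% were above 12 at Days 4, 10 and 15, against 5.93% in the control. Of the 9 VP genes, 8, 7 and 5 were above 12 on these days, against 1 in the control.

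**Figure D4:**
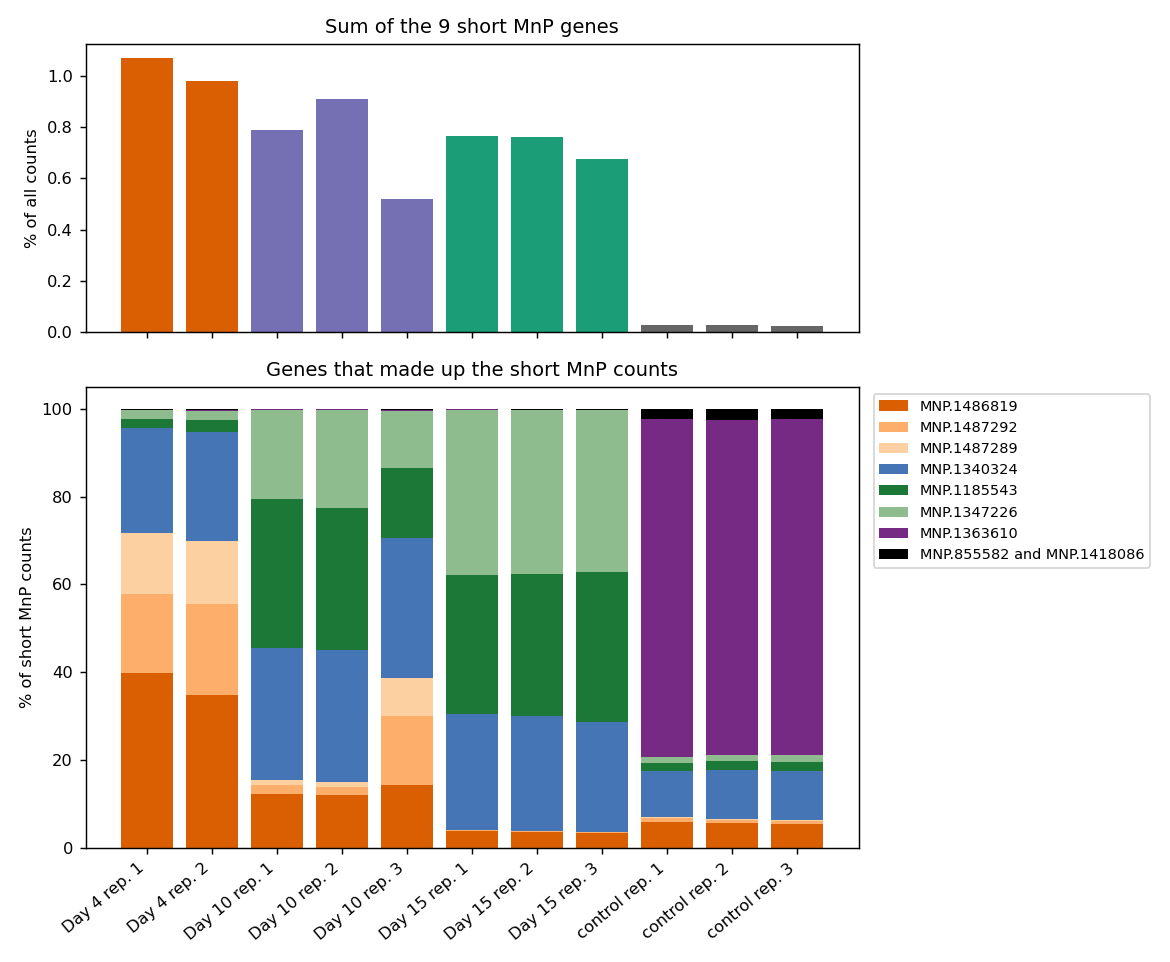
Upper panel: summed counts of the 9 short MnP genes as a percent of all counts in each library. Lower panel: the part of that sum contributed by each gene, in percent. Orange shades (MNP.1486819, MNP.1487292 and MNP.1487289) filled most of the Day 4 bars, green shades (MNP.1185543 and MNP.1347226) most of the Day 15 bars, and purple (MNP.1363610) most of the control bars.

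Per kilobase of gene, the short fragments came first at Day 4. The other genes kept a similar order, though some of near level, such as MNP.1185543 and MNP.1347226, changed places. The annotated gene spans, introns included, were 324 and 371 bp for fragments MNP.1487289 and MNP.1487292 and 1364 to 1949 bp for the other genes. In CPM per kilobase (counts scaled to the library total) at Day 4, MNP.1487292 reached 5317 ± 241, MNP.1487289 reached 4448 ± 185, MNP.1486819 reached 2235 ± 346 and MNP.1340324 reached 1825 ± 53.0 (SD, n = 2). At Day 15 the highest on this scale were MNP.1347226 at 1993 ± 149.8, MNP.1340324 at 1389 ± 132 and MNP.1185543 at 1343 ± 38.8 (SD, n = 3). In the control MNP.1363610 was at 135 ± 9.11 and the next gene, MNP.1340324, at 22.0 ± 1.40 (SD, n = 3). If a fragment is a truncated gene model, its reads per kilobase refer only to the annotated piece.

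Fragments MNP.1487289 and MNP.1487292 lay close to each other and to VP genes in the genome. On the annotation of the sequenced monokaryotic strain, which derives from the strain grown (assembly Polbr1), MNP.1487289 spans positions 99111 to 99434 and MNP.1487292 spans 106694 to 107064, 7.58 kb further on, with 2 genes between them. The annotation table used here gives no scaffold names, and the genes were taken to share a scaffold because start positions rise without a break across these entries. The 35 genes from VP.1487275 to VP.1359988, 66.9 kb in all, held 5 AA2 genes, which were singled out after their values were seen. Over the control, all 5 were higher at Day 4, by 9.05 for VP.1487275, 11.70 for VP.1110945, 11.32 for MNP.1487289, 10.41 for MNP.1487292 and 10.58 for VP.1359988. All 5 were lower at Day 15 than at Day 4, with changes of -3.26, -8.63, -7.44, -7.71 and -9.91 in the same order. Neither direction was particular to the stretch. Among all 19 AA2 genes, these 5 included, 15 were called higher and 3 lower than the control at Day 4. Between Days 4 and 15, 13 of the 19 fell and 5 rose. For all genes tested, 30.1% exceeded the control at Day 4, and 29.2% fell between Days 4 and 15. VP genes outside the stretch had Day 4 changes over the control from -3.08 to 12.52. Of the 21 other genes tested in the stretch, 5 were higher and 3 lower than the control at Day 4, and their median log2 fold change was -0.03. Leaving out ID.1111091, their changes at Day 4 ran from -1.74 to 1.77. At Day 15 their changes over the control ran wider, from -4.75 to 3.17, the lowest in a gene at a log2 level of 3.77 in the control. None of the other 8 genes had another gene of the AA2, AA3 or AA5_1 lists within 50 kb.

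**Figure D5:**
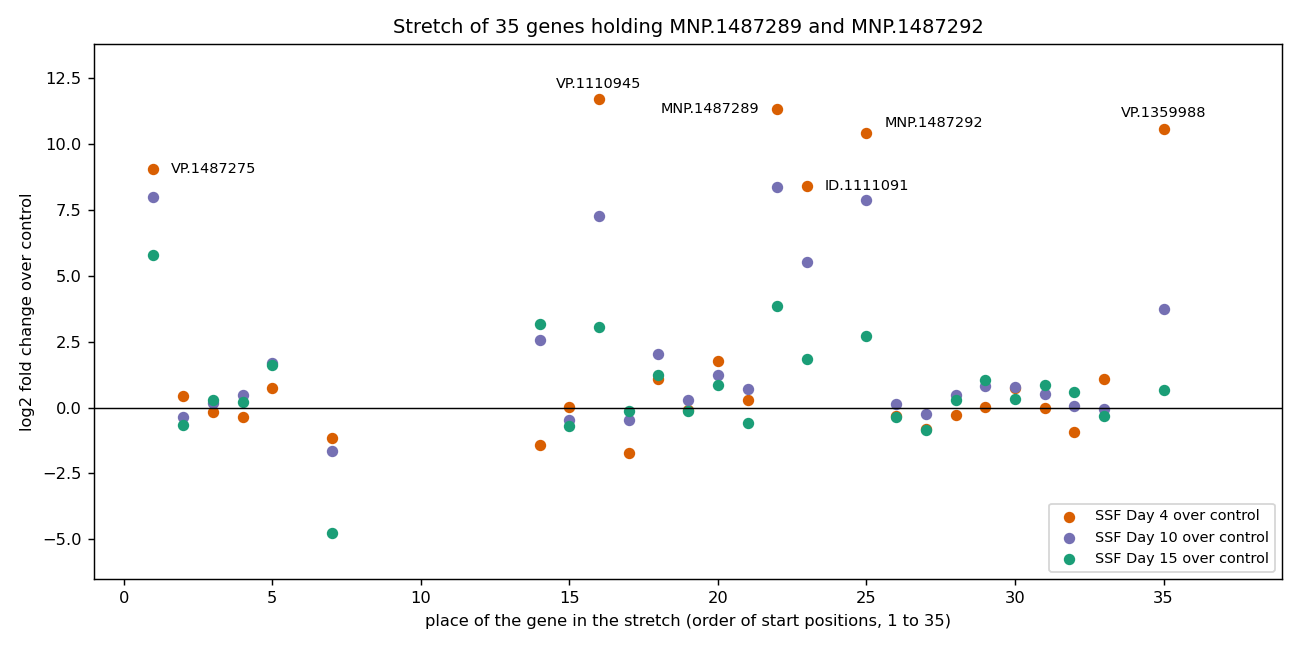
Log2 fold change over the control at SSF Days 4, 10 and 15 for the genes of the stretch that holds MNP.1487289 and MNP.1487292, in the order of their start positions. Points are genes, and genes without points did not pass the filter on low counts. The 5 AA2 genes and ID.1111091 stood at 8.42 or more at Day 4, while the other genes lay between -1.74 and 1.77 on that day.

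Some of these genes overlap others in the annotation. Gene ID.1111091, with no peroxidase annotation in the lists used here, overlaps MNP.1487289 by 78 bp, and its counts moved with it. They were 13562 and 12123 at Day 4, 823, 823 and 3797 at Day 10, then 165, 94 and 200 at Day 15, against 70, 61 and 106 in the control. Its log2 fold change over the control at Day 4 was 8.42 (adjusted p = 1.29e-07). Gene ID.1040236 overlaps MNP.1486819 by 13 bp and was likewise higher at Day 4, by 8.78 (adjusted p = 5.34e-13), with 8315 and 6369 counts there, 1127, 1124 and 967 at Day 10, then 187, 194 and 268 at Day 15, against 41, 28 and 36 in the control. The library kit does not mark the strand, so reads from overlapping genes cannot be told apart in the shared bases, and whether one transcript gave counts to both genes was not tested. Gene ID.1039899, which overlaps MNP.1486819 by 184 bp, held 75 to 170 counts per library, and ID.871962, which overlaps MNP.1340324 by 137 bp, held 31 to 103. Only uniquely mapped reads were counted, so reads shared by near-identical AA2 genes may be missing from both, and gene sequences were not compared here.

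Among the other genes of the AA2, AA3 and AA5_1 lists, each gene had a closest partner by its profile over the 11 libraries, given here as Pearson's r of log2 levels. Libraries of a group share their condition, so r reflects the 4 conditions more than 11 points. Fragments MNP.1487292 and MNP.1487289 were both closest to VP.918032 (r = 0.999 and 0.997), and stayed so over the 8 SSF libraries alone (r = 0.999 and 0.998). Genes MNP.1185543 and MNP.1347226 were closest to each other (r = 0.997). MNP.1486819 was closest to the secreted AA3_2 gene GMC.823803 (r = 0.994), MNP.1340324 to the AA5_1 gene CRO.1557562 (r = 0.996) and MNP.855582 to the AA3_3 gene GMC.1364967 (r = 0.988). The genes highest in the control, MNP.1363610, MNP.1418086 and GP.1560842, were closest to the AA3 genes GMC.1388653 (r = 0.992), GMC.1479630 (r = 0.957) and GMC.1394538 (r = 0.955). Within the 8 SSF libraries the partner changed for 7 of the 10 genes, and with Spearman's rho over all 11 for all 10.

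Peroxidases need hydrogen peroxide, which AA5_1 copper radical oxidases and AA3 oxidases can produce. All 3 AA5_1 genes were higher than the control on each day. Gene CRO.1557562 was higher by 10.77 (SE 0.23), 11.23 and 10.75 at Days 4, 10 and 15, gene CRO.713930 by 9.18 (SE 0.17), 9.91 and 9.01, and gene CRO.1353775 by 2.44 (SE 0.34), 4.44 and 2.05 on the log2 scale. Between days, all 3 were higher at Day 10 than at Day 4, with changes of 0.47, 0.73 and 2.00 in the same order, and lower at Day 15 than at Day 10, with changes of -0.48, -0.90 and -2.39. None was called for Day 15 over Day 4, with changes of -0.01 (95% interval -0.38 to 0.35), -0.17 (95% interval -0.45 to 0.10) and -0.39 (95% interval -1.10 to 0.33). Whether these changes differed from those of the short MnPs was not tested.

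Of the 3 AA3_3 genes, a group of alcohol oxidases, GMC.1364967 was higher than the control by 6.32, 5.39 and 4.93 at Days 4, 10 and 15, and GMC.1467319 by 2.36, 1.16 and 1.10. The third, GMC.1484504, was lower, with changes of -2.26, -1.78 and -2.57. The AA3_4 gene GMC.1404761 was not called on any day (0.21, -0.22 and -0.13). In the counts that follow, a rise or a fall is a called difference from the control, not a change over time. Of all genes tested, 30.1% rose and 32.2% fell at Day 4, and 31.5% rose and 31.1% fell at Day 10. At Day 15, 33.0% rose and the same share fell. Among 12 predicted secreted AA3_2 genes, 4 rose and 5 fell at Day 4. At Day 10 there were 6 rises and 5 falls, and at Day 15 there were 5 rises and 6 falls. The 17 other AA3 genes tested gave 4 rises and 5 falls at Day 4, 7 rises and 6 falls at Day 10, and 6 of each at Day 15. Of the 9 VPs, 8 rose and 1 fell at Days 4 and 10, while 7 rose and 1 fell at Day 15. As a reference, 20 single-copy genes had 5 rises and 3 falls at Day 4, 4 rises and 3 falls at Day 10, and 4 of each at Day 15, with medians of -0.02, 0.07 and -0.01.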

How the data were processed

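RNA of 11 samples was sequenced as paired-end libraries from a kit that does not mark strand. The values are counts of reads per gene as deposited by the authors, who checked reads with FastQC, trimmed them with Sickle (quality 20, length 20), mapped them with TopHat2 to the BRFM 1820 genome keeping unique mappings, and counted them with HTSeq. The submitters' processing notes name DESeq 1.5, and the paper DESeq2. For TopHat and HTSeq, the sources used here state neither versions nor the counting mode. Read length is 75 bp by the labels, and the paper gives another value. The paper gives triplicates, and Day 4 has 2 libraries here.

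All 18244 genes were used. The 6 comparisons were tested with edgeR 4.0.16 in R 4.3.3 on counts scaled by TMM, after filterByExpr (count minimum 10, total minimum 15). The fit had 4 group means over 11 libraries and left 7 residual degrees of freedom. F tests were quasi-likelihood tests, with Benjamini-Hochberg adjustment at 0.05. SE was taken as the size of the log2 fold change over the root of F. P-values measure the spread between these libraries. Levels used DESeq2 1.42.0 size factors and a pseudocount of 1. Ratios within a library used counts + 1. Summaries were made with Python 3.11.15, pandas 2.3.3, numpy 2.4.6, scipy 1.17.1 and matplotlib 3.10.9. The code of the test was run on simulated counts, for Day 15 over Day 4 only. These were drawn from the model that was then fitted, with far fewer changed genes than were called here. That run therefore says nothing on how well the test suits these libraries. Identifiers were matched to the annotation table by locus tag for 18240 of 18244 genes, the 10 genes among them.

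All 10 genes are named, as are the closest genes by profile and the AA5_1, AA3_3 and AA3_4 genes. Other lists are given by counts. The VPs and the unlisted gene in the 35-gene stretch, and the genes overlapping a member, were named after their values were seen. Members, lists and tests were chosen with earlier results of these data known. The lists are the study's annotations. Alternatives were DESeq2 size factors, library totals, a filter of 50 counts, only genes at 0 throughout left out, DESeq2's Wald test, a replicate block, only the groups compared, each library left out, TMM, total scaling, a pseudocount of 0.5 or the log2 of the mean for levels, library totals without the 10 most abundant genes for shares, and Spearman's rho or only the SSF libraries for profiles.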

Additional observations from a re-analysis of the deposited data

Results flagged for a closer look

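For 9 of the 10 genes, the difference from the control itself differed between Day 15 and Day 4, by edgeR's quasi-likelihood test of Day 15 over Day 4, in which the shared control cancels. In that test 28.6% of all genes were higher and 29.2% lower. The difference from the control was larger at Day 15 on the log2 scale by 3.15 for MNP.1185543 and by 3.57 for MNP.1347226. It was smaller at Day 15 for MNP.1486819 (-3.97), MNP.1487289 (-7.44), MNP.1487292 (-7.71), MNP.855582 (-0.72) and MNP.1340324 (-0.51), whose call was lost under 4 of 18 alternatives. For MNP.1363610 (-1.83) and MNP.1418086 (-1.68), both below the control on straw, the distance grew.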

How the results depend on the processing

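The 10 genes gave 60 differences, each under 18 alternatives. Of these 1080 values, 1053 kept their direction and side of the limit, 17 lost their call, 8 gained one and 2 turned sign. The sign turned for Day 15 over Day 10 in MNP.855582 (0.054 without Day 15 replicate 3, in a range of -0.16 to 0.054 with each library left out) and MNP.1185543 (-0.23 without Day 10 replicate 3, in a range of -0.23 to 0.47), neither called. No gene was higher at Day 15 than at Day 10 (0 in place of 1) with only the 2 groups in the fit. With each library left out that count was 0 to 1, with 0 without Day 15 replicate 1 or 2. Over all genes, the same comparison gave 1154 to 1968 higher and 1200 to 2187 lower genes, lowest without Day 15 replicate 2, against 1810 and 1915 with all libraries. Library totals gave 2957 genes higher than the control at Day 4, in place of 4650, as the median of all genes moved to -0.45. Leaving the 10 most abundant genes out of the totals raised the short MnP share to 1.13% at Day 4 and 0.802% at Day 15, against 0.0296% in the control, by construction. For 16 of 40 group levels, library totals moved the mean by 1 SD or more.

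Replicate numbers were not taken to pair the samples, since correlations of deviations ran from -0.023 to 0.171 and no comparison with 3 pairs had all above 0.1. Day 10 and Day 4 share only 2 numbers, with correlations of 0.163 and 0.171. The replicate block changed 2 calls, both of MNP.1418086, with -0.61 (adjusted p = 0.0427) for Day 4 over the control and -0.68 (adjusted p = 0.0536) for Day 10 over Day 4.

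The cause of these changes was not tested. Depth limits MNP.1418086 most, with 11 to 41 counts in the SSF libraries.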
